A study of Mus musculus with 4 samples.

Results

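The 9 genes described here are the thick filament genes of the heart muscle sarcomere, titin, and the long non-coding RNA on the strand opposite a myosin heavy chain gene. They were taken by name from the 15746 genes of the normalized count table, and all 9 are listed in it. They are the myosin heavy chains Myh6 and Myh7, the ventricular light chains Myl2 and Myl3, the atrial light chains Myl4 and Myl7, the cardiac myosin-binding protein C gene Mybpc3, the titin gene Ttn, and Mhrt. RNA had been sequenced from isolated mitochondria and from the rest fraction, labelled as tissue minus mitochondria, of adult mouse hearts with the genotype WT. Each fraction had 2 libraries, and the study made this comparison to find nuclear-encoded long non-coding RNAs in cardiac mitochondria. Hearts were perfused and homogenised, the pellet of cell debris from a slow spin was kept as the rest fraction, and mitochondria were pelleted from its supernatant at a higher speed. The mitochondria alone were then exposed to digitonin, which opens cholesterol-rich membranes, and to RNase A, and their RNA had its own fragmentation time, so that these steps and the fraction cannot be told apart. The labels do not say whether libraries with the same number came from the same animals, or from how many animals, so that p-values measure only the spread between these libraries.

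In the sarcomere, bipolar thick filaments of myosin pull on thin filaments of actin. A myosin molecule has a pair of heavy chains, which carry the motor domains, and each heavy chain binds an essential and a regulatory light chain. In the adult mouse, Myh6 encodes the fast alpha heavy chain that dominates the heart, and Myh7 encodes the slow beta heavy chain of the fetal and the stressed heart. Myosin-binding protein C sits on part of the thick filament and tunes cross-bridge cycling. Titin spans from the Z-disc to the M-band, acts as a molecular spring, and has one of the longest mRNAs known. The ventricle uses the regulatory light chain of Myl2 and the essential light chain of Myl3, and the atrium uses those of Myl7 and Myl4.

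The 2 heavy chain genes lie next to each other on chromosome 14 of GRCm38, on the minus strand, Myh6 at chr14:54941921-54966927 and Myh7 at chr14:54970684-54994626. Their coding sequences, 5814 and 5805 bases long, were identical at 91.7% of 5802 aligned bases. With reads of 75 bases, 15.5% of all 75-base words of the longest Myh6 transcript and 19.7% of those of Myh7 also occur in another gene, on either strand, and such reads were left out by the authors when they aligned to several regions. The longest run, read from the GENCODE transcripts, that both coding sequences share is shown here because no read inside it can be assigned to one of the genes. It covers 245 bases from position 4246 of the Myh6 coding sequence (2 exons within chr14:54948327-54948725) and from position 4240 of that of Myh7 (2 exons within chr14:54974947-54975347).
Myh6 and Myh7, shared run: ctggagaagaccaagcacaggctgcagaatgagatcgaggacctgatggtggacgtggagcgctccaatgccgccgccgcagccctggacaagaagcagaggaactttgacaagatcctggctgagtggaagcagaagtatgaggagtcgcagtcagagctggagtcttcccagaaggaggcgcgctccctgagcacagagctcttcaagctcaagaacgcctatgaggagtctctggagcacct
The 60-base window with the most differences, 27, is shown beside it because reads across it can be assigned to one of the genes. The counts of the 2 genes rest on all reads that align to one region only, not on such windows alone. Capitals mark the bases that differ, and the window starts at position 3226 of the Myh6 and position 3220 of the Myh7 coding sequence (2 exons each, within chr14:54952303-54952599 and chr14:54980378-54982191, minus strand).
Myh6: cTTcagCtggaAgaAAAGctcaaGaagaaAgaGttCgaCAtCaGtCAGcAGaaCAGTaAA
Myh7: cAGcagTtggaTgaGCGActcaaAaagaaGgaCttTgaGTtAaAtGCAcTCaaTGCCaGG

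Mhrt (chr14:54968678-54974349, plus strand) runs from the region between the heavy chain genes into Myh7 on the opposite strand. Its longer annotated transcript, Mhrt-201, has 828 bases in 5 exons, of which 484 lie opposite exons of Myh7 and 463 opposite its coding sequence. The shorter transcript, Mhrt-202, has 447 bases in 2 exons and shares 0 bases with Myh7 exons. Of all 75-base words of Mhrt-201, 27.7% also occur in another gene, on either strand, with 27.3% opposite Myh7 and 17.5% opposite Myh6. Here too, reads that aligned to several regions were left out. The first 60 bases of the longest stretch opposite a coding exon (chr14:54973878-54973937, plus strand) are shown because a read from here tells Mhrt from Myh7 only by its strand.
Mhrt: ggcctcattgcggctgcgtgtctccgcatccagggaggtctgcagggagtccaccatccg
The introns of the heavy chain genes also hold microRNAs, short RNAs that pair with target mRNAs through their seed, bases 2 to 8. The mature sequences from RefSeq (GRCm38.p6) are shown with the seed in capitals because miR-208a from Myh6 and miR-208b from Myh7 share it. The seed of miR-499 from Myh7b differs from theirs only at base 8.
miR-208a-3p: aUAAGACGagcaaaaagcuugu
miR-208b-3p: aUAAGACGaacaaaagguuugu
miR-499-5p: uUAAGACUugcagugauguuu
These microRNAs share 0 bases with exons of their host genes. The table gives Mir208b 0 and 3 normalized counts in the mitochondrial and 9 and 7 in the rest libraries, below the filter for a test.

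The deposited values are read counts divided by a size factor of the library, called normalized counts. From the spacing of low values, the 4 libraries held about 23500000 to 47400000 reads on genes. For rest replicate 1 the spacing alone did not settle the value, which was searched near the one that the size factors of the other libraries give. Genes of the mitochondrial chromosome took 93.5 to 97.6% of the normalized counts of the mitochondrial libraries and 63.2 to 67.5% of those of the rest libraries, which left about 1150000 and 2080000 reads on nuclear genes in mitochondrial replicates 1 and 2 and 9680000 and 7630000 in rest replicates 1 and 2. For mitochondrial replicates 1 and 2, 3 reads of a gene are worth 11.6 and 7.65 normalized counts, and for the rest libraries 0.793 and 1.10. PCR copies cannot be told apart, so that such limits and the intervals given for shares cover counting error only. Of the cell type markers, all 6 genes for cardiomyocytes were listed, with sums of 77785 to 104830 normalized counts in mitochondria and 64665 to 71739 in the rest fraction, and none was at 0. These genes were split, as Actc1, Tnnt2, Tnni3 and Pln had the higher mean in mitochondria and Ryr2 and Atp2a2 in the rest fraction. The 4 blood markers summed to 50 to 323 and 412 to 781, the 4 listed skeletal muscle markers to 105 to 173 and 83 to 108, with Atp2a1 at 0 in mitochondrial replicate 1, the 5 fibroblast markers to 3440 to 8188 and 2175 to 3063, the 4 endothelial markers to 1214 to 1402 and 2173 to 2395, and the 4 leukocyte markers to 286 to 453 and 177 to 257. The part of other cells in the results was not tested, and in such bulk samples fewer cells of a type and less RNA per cell cannot be told apart.

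Together the 8 protein-coding members took 16.4% and 14.7% of the normalized counts on nuclear protein-coding genes in mitochondrial replicates 1 and 2 (15.5% ± 1.15, SD, n = 2) and 27.5% and 24.0% in rest replicates 1 and 2 (25.8% ± 2.49, SD, n = 2). Both rest libraries lay above both mitochondrial libraries. Most of this gap came from Ttn, whose share was 5.63% ± 0.207 (SD, n = 2) of these counts in mitochondria but 15.4% ± 1.40 (SD, n = 2) in the rest libraries. The Wilson 95% intervals of the Ttn share were 5.72 to 5.84% in mitochondrial replicate 1 and 16.4 to 16.5% in rest replicate 1. Myh6 took 7.51% ± 0.723 and 8.54% ± 0.904 (SD, n = 2 each), a difference within the spread of the libraries. Of the counts on all nuclear genes, non-coding ones included, Myh6 took 3.92 and 2.42% in mitochondria and 7.21 and 5.79% in the rest libraries. On that denominator the fractions did not overlap. Of the protein-coding counts, Myl2 and Myl3 together went the other way, with 1.16% ± 0.0858 in mitochondria against 0.380% ± 0.0677 in the rest libraries (SD, n = 2 each). On all nuclear genes the gap was smaller, with 0.595 and 0.380% in mitochondria and 0.336 and 0.244% in the rest libraries. An exact permutation test of 2 against 2 libraries cannot give a p below 0.33 and was not run.

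**Figure D1:**
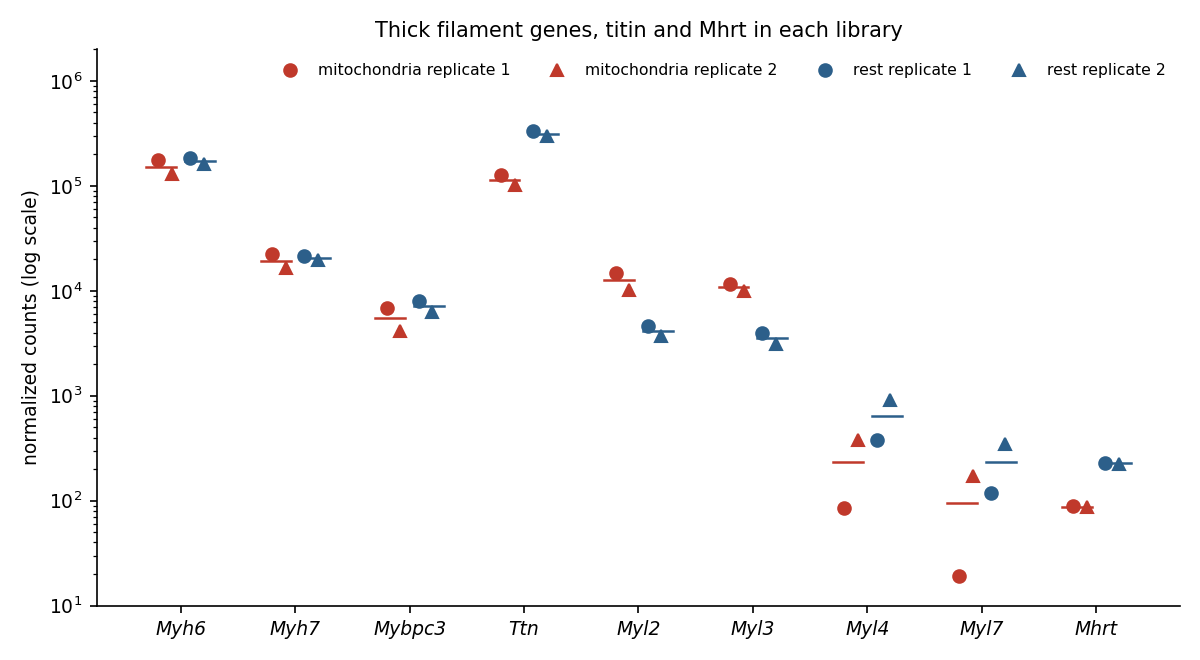
Normalized counts of the 9 genes on a log scale in each library, mitochondria in red and rest in blue, circles for replicate 1, triangles for replicate 2 and lines for the mean of the fraction. Both mitochondrial libraries lie above both rest libraries for Myl2 and Myl3 and below them for Ttn, Myl4 and Mhrt, with Myl4 at 380 and 382 normalized counts at the nearest point.

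For the test, log2 of the normalized count plus 1 was compared between the fractions with limma over the 12150 genes that reached 10 normalized counts in 2 or more libraries, and p-values were adjusted over all of them by the Benjamini-Hochberg method. All 9 genes passed this filter. At an adjusted p under 0.05, Myl3 was higher in mitochondria and Mhrt was lower, 1 gene of 9 in each direction, where 2.16% and 1.39% of all tested genes were called. The log2 fold change was positive for 2 of the 9 genes, Myl2 and Myl3, and negative for the other 7, with a median of -0.40 over the 9 and of -0.14 over all tested genes. The libraries of the fractions did not overlap for 2 members that lay higher in mitochondria and 3 that lay lower, and for 27.7% and 33.4% of all tested genes in these directions. Scaled to the library total instead, the log2 fold changes of all 9 genes were negative, Myl2 and Myl3 included, around a median over the tested genes of -3.93. Since any such scaling cancels in the ratio of genes of the same library, each member was also tested as its ratio to Myh6. In that fit over 12149 genes, 2 of the other 8 members, Myl2 and Myl3, were higher in mitochondria and 0 were lower, where 5.01% and 1.16% of the genes were called. At an unadjusted limma p under 0.05, 2 members, Ttn and Mhrt, were lower as ratios, where 8.77% of all genes were.

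**Figure D2:**
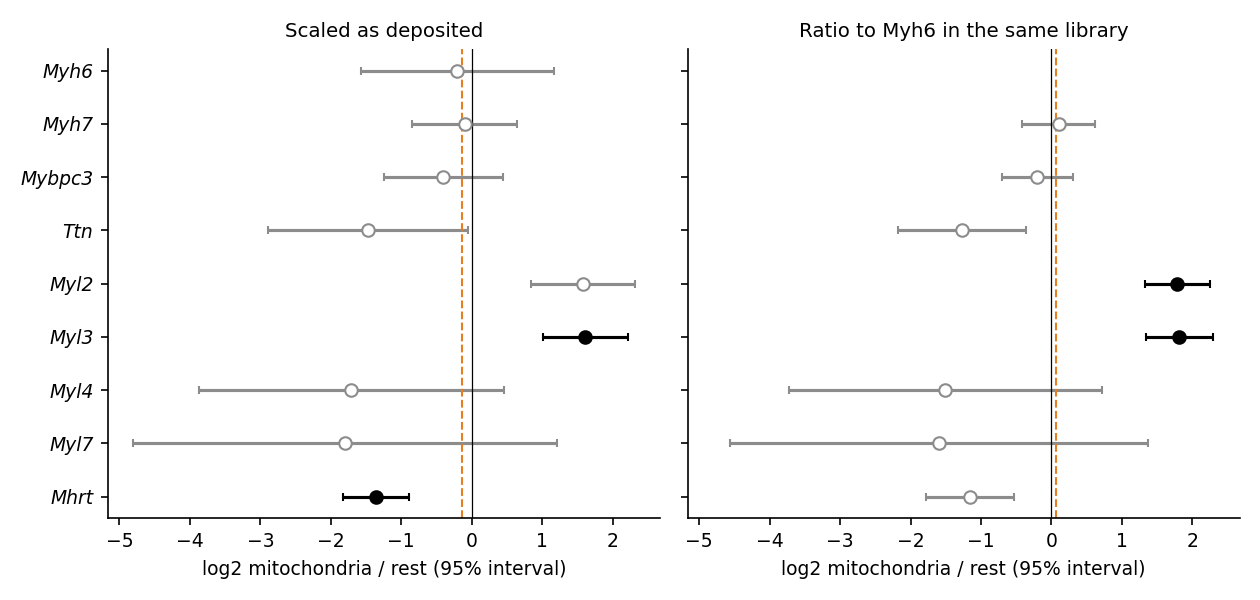
Log2 fold change of mitochondria against rest with its 95% interval from limma, scaled as deposited (left) and as the ratio to Myh6 in the same library (right). Filled points have an adjusted p under 0.05, and the dashed line is the median of all tested genes. Myl2 and Myl3 lie near 1.6 on the left and 1.8 on the right, and on the left both turn negative when scaled to the library total.

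Scaled as deposited, the heavy chains did not differ between the fractions beyond the spread of the libraries. Myh6 reached 174838 and 128576 normalized counts in mitochondria and 184487 and 161461 in the rest fraction, replicate 1 first here and in what follows. The ranges overlapped, and the log2 fold change was -0.20 ± 0.52 (SE, n = 2 against 2, 95% interval -1.57 to 1.16, limma adjusted p = 0.813). Myh7 had 22215 and 16387 in mitochondria and 21445 and 19468 in the rest fraction, which again overlapped, with a log2 fold change of -0.10 ± 0.29 (SE, interval -0.85 to 0.65, limma adjusted p = 0.834). Without mitochondrial replicate 2 both values turned positive, to 0.019 for Myh6 and 0.12 for Myh7. Scaled to the library total, Myh6 was at -4.19 and Myh7 at -4.09, near the median of -3.93 over all tested genes. Both were called lower in that fit, as were 98.9% of all genes. For each 100 normalized counts of Myh6 there were 12.7 of Myh7 in both mitochondrial libraries and 11.6 and 12.1 in rest replicates 1 and 2. The beta to alpha ratio of the heavy chains was thus nearly the same in all 4 libraries, and its log2 difference between fractions was 0.10 with an interval of -0.41 to 0.62 (limma adjusted p = 0.789). The counts of both genes leave out the reads from the shared run and its like shown above.

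Mybpc3 (chr2:91118144-91136516, plus strand), whose product binds myosin, had 6902 and 4112 normalized counts in mitochondria and 7908 and 6270 in the rest fraction. Mitochondrial replicate 2 was the lowest, and replicate 1 lay between the rest libraries. The log2 fold change was -0.40 ± 0.32 (SE, interval -1.25 to 0.45, limma adjusted p = 0.444). Mybpc3 reached 3.95 and 3.20 per 100 Myh6 in mitochondria and 4.29 and 3.88 in the rest fraction, ranges that overlapped, with a log2 difference of -0.20 (interval -0.70 to 0.30, limma adjusted p = 0.574).

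Titin mRNA had lower levels in both mitochondrial libraries, without passing the test. Ttn (chr2:76703980-76982547, minus strand) had 126054 and 100863 normalized counts in mitochondria and 330174 and 295269 in the rest fraction, so that both mitochondrial libraries lay far below both rest libraries. The log2 fold change was -1.47 ± 0.54 (SE, interval -2.89 to -0.05), a 2.77-fold lower level, but the adjusted p of limma was 0.157 and the unadjusted p 0.0448. The libraries of a fraction differed by 0.32 and 0.16 on the log2 scale, less than the SE, which limma raises here toward the larger spread of the most abundant genes. With the test limited to genes with a mean above 50 normalized counts the adjusted p was 0.0459, in a fit that called 12.1% of its genes lower, and without the mean-variance trend it was 0.0898. Against the heavy chain in the same library, there were 72.1 and 78.4 Ttn per 100 Myh6 in mitochondria and 179 and 183 in the rest fraction. These pairs were tight and did not overlap, and the log2 difference was -1.27 (interval -2.17 to -0.36, limma unadjusted p = 0.0145, adjusted p = 0.101). The log2 difference ranged from -1.33 to -1.21 when 1 library was left out.

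The ventricular light chains were the only members with a positive log2 fold change over the 4 libraries, except with scaling to the library total, where they too were lower. Myl3, the essential light chain (chr9:110741861-110769798, plus strand), had 11634 and 9923 normalized counts in mitochondria and 3976 and 3106 in the rest fraction. Both mitochondrial libraries were well above both rest libraries, by 3.06-fold (log2 fold change 1.61 ± 0.23, SE, interval 1.01 to 2.22, limma adjusted p = 0.0469). Myl2, the regulatory light chain (chr5:122100951-122113472, plus strand), had 14923 and 10229 in mitochondria and 4631 and 3688 in the rest fraction. The libraries were as clearly separated, with a log2 fold change of 1.58 ± 0.28 (SE, interval 0.84 to 2.32), and the adjusted p of limma, 0.0551, lay just above the threshold. The call of Myl3 was lost when any 1 of the 4 libraries was left out (limma adjusted p from 0.0631 to 0.526), in fits that called 0 of the 12150 genes, and without the mean-variance trend (0.0853).

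The ratios of the ventricular light chains to the heavy chain Myh6 were higher in mitochondria. Those of the atrial light chains Myl4 and Myl7 had negative log2 differences, -1.50 and -1.59, that did not pass the test (limma adjusted p = 0.342 and 0.446). For the ventricular light chains, there were 8.54 and 7.96 Myl2 per 100 Myh6 in mitochondria and 2.51 and 2.28 in the rest fraction, and 6.65 and 7.72 Myl3 against 2.16 and 1.92. The log2 differences were 1.78 for Myl2 (interval 1.32 to 2.24) and 1.82 for Myl3 (interval 1.34 to 2.29), both with a limma adjusted p of 0.0163. When a library was left out, the log2 differences ranged from 1.71 to 1.85 for Myl2 and from 1.71 to 1.92 for Myl3. Both calls were lost without the mean-variance trend (limma adjusted p = 0.0826 and 0.0837). The ventricular light chains kept their ratio to each other, with 78.0 and 97.0 Myl3 per 100 Myl2 in mitochondria and 85.9 and 84.2 in the rest fraction. With the sum of the thin filament genes in place of Myh6, the log2 differences of Myl2 and Myl3 were only 0.16 and 0.19 (limma adjusted p = 0.480 and 0.392). On that scale Ttn was at -2.89, Mybpc3 at -1.82 and Myh7 at -1.52 (limma adjusted p = 0.00393, 0.00339 and 0.00369), and Myl4 and Mhrt at -3.13 and -2.78 (limma adjusted p = 0.0300 and 0.00222). The median of all genes in that fit was -1.56, and 62.0% of them were called lower.

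The atrial light chains were scarce, and they differed more between replicates than any other member. Myl4, the atrial essential light chain (chr11:104550663-104595753, plus strand), had 85 and 380 normalized counts in mitochondria and 382 and 912 in the rest fraction. Myl7, the atrial regulatory light chain (chr11:5896637-5898782, minus strand), had 19 and 173 in mitochondria, the first value resting on about 4.91 reads, and 119 and 349 in the rest fraction. The fractions met at 380 and 382 for Myl4 and overlapped for Myl7. The log2 fold changes were -1.71 ± 0.83 and -1.80 ± 1.15 (SE), with limma adjusted p of 0.236 and 0.347. Leaving out mitochondrial replicate 1 moved them to -0.63 and -0.24, and leaving out mitochondrial replicate 2 moved them to -2.78 and -3.36.

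In both fractions Myl4 and Myl7 were higher in replicate 2 than in replicate 1, by 2.15 and 3.12 on the log2 scale in mitochondria and by 1.25 and 1.54 in the rest fraction. The other 3 atrial markers moved the same way. Nppa, the atrial natriuretic peptide gene, had 112 and 431 normalized counts in mitochondria and 180 and 644 in the rest fraction, Sln (sarcolipin) had 27 and 36, and 30 and 104, and Bmp10 had 8 and 41, and 25 and 421. The 5 atrial markers summed to 251 and 1061 in mitochondria and to 736 and 2430 in the rest fraction, and none was at 0. Myl2 and Myl3 moved the opposite way, lower in replicate 2 by 0.54 and 0.23 on the log2 scale in mitochondria and by 0.33 and 0.36 in the rest fraction. This was not particular to the ventricular light chains. Myh6, Myh7, Mybpc3, Ttn and Mhrt were also lower in replicate 2 in both fractions, with log2 differences of -0.44 and -0.19 for Myh6. The 3 listed smooth muscle markers also summed to more in replicate 2, with 136 and 441 in mitochondria and 598 and 1416 in the rest fraction, with Cnn1 at 0 in mitochondrial replicate 1. The part of these cells in the values of Myl4 and Myl7 was not tested. There were 0.127 and 1.69 Myl7 per 100 Myl2 in mitochondria and 2.57 and 9.46 in the rest fraction, so that both mitochondrial values lay below both rest values.

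**Figure D3:**
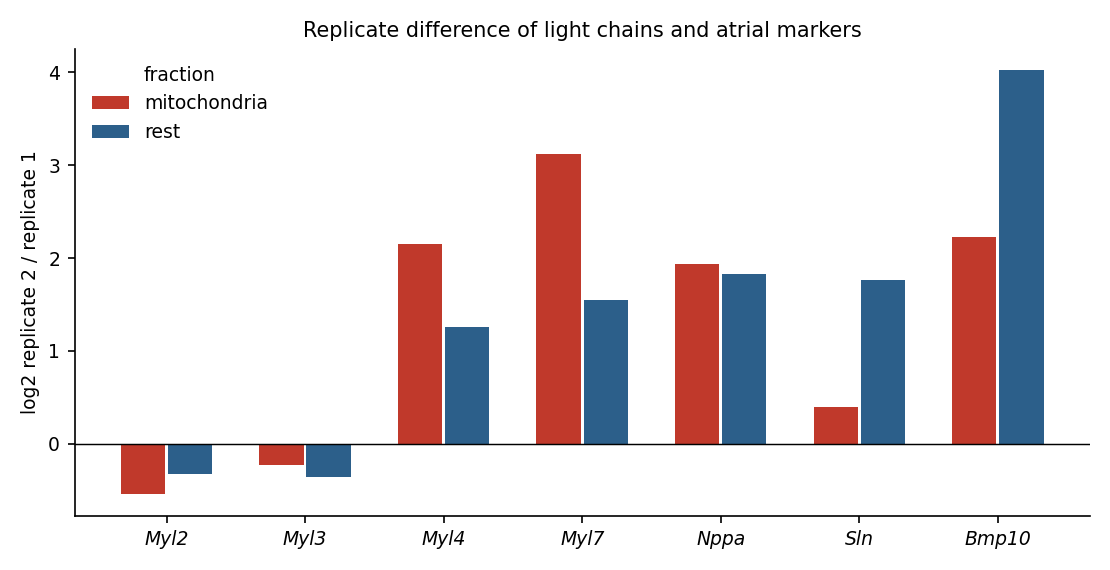
Log2 difference of replicate 2 from replicate 1 within each fraction (mitochondria in red, rest in blue) for the ventricular light chains, the atrial light chains and 3 other atrial markers. Myl2 and Myl3 are below 0 in both fractions, and Myl4, Myl7, Nppa, Sln and Bmp10 are above 0 in both. Myh6, Myh7, Mybpc3, Ttn and Mhrt, which are not drawn, were also below 0 in both.

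Mhrt, known as a cardiac RNA that binds the chromatin remodeller Brg1, was lower in mitochondria. It had 89 and 87 normalized counts in mitochondria, from about 23.0 and 34.1 reads, and 231 and 223 in the rest fraction. Both mitochondrial libraries lay below both rest libraries, by 2.56-fold (log2 fold change -1.36 ± 0.18, SE, interval -1.83 to -0.89, limma adjusted p = 0.0428). The mitochondrial replicates nearly coincided, closer than counting error of so few reads would lead one to expect. Their closeness is thus no measure of precision, and the SE and interval may be too narrow. The call was lost when any 1 of the 4 libraries was left out (limma adjusted p from 0.0523 to 0.526), but these fits called 0 of the 12150 genes, and the log2 fold change stayed between -1.38 and -1.33. Without the mean-variance trend the adjusted p was 0.0853. Set against Myh7 on the other strand, there were 0.401 and 0.531 Mhrt per 100 Myh7 in mitochondria and 1.08 and 1.15 in the rest fraction. As a ratio to Myh6, Mhrt was lower by a log2 difference of -1.15 (interval -1.78 to -0.53), with a limma adjusted p of 0.0580. All 3 markers of nuclear RNA, Malat1, Neat1 and Kcnq1ot1, were at lower levels in mitochondria as well, with sums of 13648 and 8699 against 42937 and 45482, and none was at 0. The part of nuclear RNA in the value of Mhrt was not tested. Whether strand was used in counting is not given in the sources used here, so that Mhrt counts from the shared exons shown above are uncertain. Named after its values were seen, Gm31251, another long non-coding RNA opposite Myh7, had 43 and 31 in mitochondria and 151 and 101 in the rest fraction.

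Levels of different genes were compared only as normalized counts per kb of annotated exons. In mitochondria the order was Myh6 (22555 ± 4864 per kb, SD, n = 2), Myl2 (6449 ± 1702), Myl3 (5273 ± 592), Myh7 (2240 ± 478), Mybpc3 (1323 ± 474), Ttn (971 ± 152), Myl7 (163 ± 185), Mhrt (72.5 ± 1.16) and Myl4 (50.1 ± 45.0). Neighbours closer than the larger SD of the pair were Myl2 and Myl3, Mybpc3 and Ttn, Myl7 and Mhrt, and Mhrt and Myl4. In the rest fraction the order was Myh6 (25717 ± 2421), Ttn (2677 ± 211), Myh7 (2374 ± 162), Myl2 (2133 ± 342), Myl3 (1732 ± 301), Mybpc3 (1703 ± 278), Myl7 (397 ± 276), Mhrt (187 ± 4.66) and Myl4 (140 ± 80.8). Here the neighbours as close as this were Myh7 and Myl2, Myl3 and Mybpc3, Myl7 and Mhrt, and Mhrt and Myl4. Ttn had 4.33 per kb for each 100 per kb of Myh6 in mitochondria and 10.4 in the rest fraction. With the longest protein-coding transcript as the length, a choice made after seeing the data, Myl2 (4679 ± 750) and Myl3 (3779 ± 657) moved above Myh7 (3284 ± 224) and Ttn (2927 ± 231) in the rest fraction. Myl4 then moved above Myl7 and Mhrt in both fractions, to 247 ± 221 in mitochondria and 686 ± 397 in the rest fraction. The order in both fractions thus depends on which exons are counted.

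The members span a wide range of lengths, from 0.59 kb of exons for Myl7 to 116.825 kb for Ttn, and length went with the fold change over all nuclear protein-coding genes tested. The median log2 fold change was 1.47 for the 160 genes with exons under 1 kb, 0.76 from 1 to 2 kb, 0.19 from 2 to 4 kb, -0.24 from 4 to 8 kb, -0.52 from 8 to 16 kb and -0.79 for the 283 genes over 16 kb. Myh6 lay at the median of its band, with a distance of 0.04, and Mybpc3 was 0.16 below its own. Myh7 was above by 0.43, Myl2 by 0.82 and Myl3 by 1.43, so that 60 of the 2898 genes in the band of Myl3 had a higher value. Ttn was 0.68 below the median of the longest genes, and 27 of 283 had a lower value. Relative to the median of genes of their length Myl4 was at -1.47 and Myl7 at -3.26, and 3 of the 160 shortest genes had a lower value than Myl7, but without mitochondrial replicate 1 the log2 fold changes of Myl4 and Myl7 were only -0.63 and -0.24. In all, 4 of the 8 protein-coding members lay above the median of their band. With the longest transcript as the length there were 5, with Mybpc3 at 0.01 above, Myl3 at 1.05 and Myl2 at only 0.23, where 112 of 330 genes of its band had a higher value than Myl2. The longest protein-coding transcripts of Myl3 and Myl4 have only 0.937 and 0.943 kb, shorter than both lengths used for their bands. Such a length would place both under 1 kb, where the median by longest transcript was 1.35, against 1.61 for Myl3 and -1.71 for Myl4. The distance of Myl3 from genes of its length thus depends on which exons are counted. The part of length, of fragmentation and of the RNase treatment in the fold changes was not tested.

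**Figure D4:**
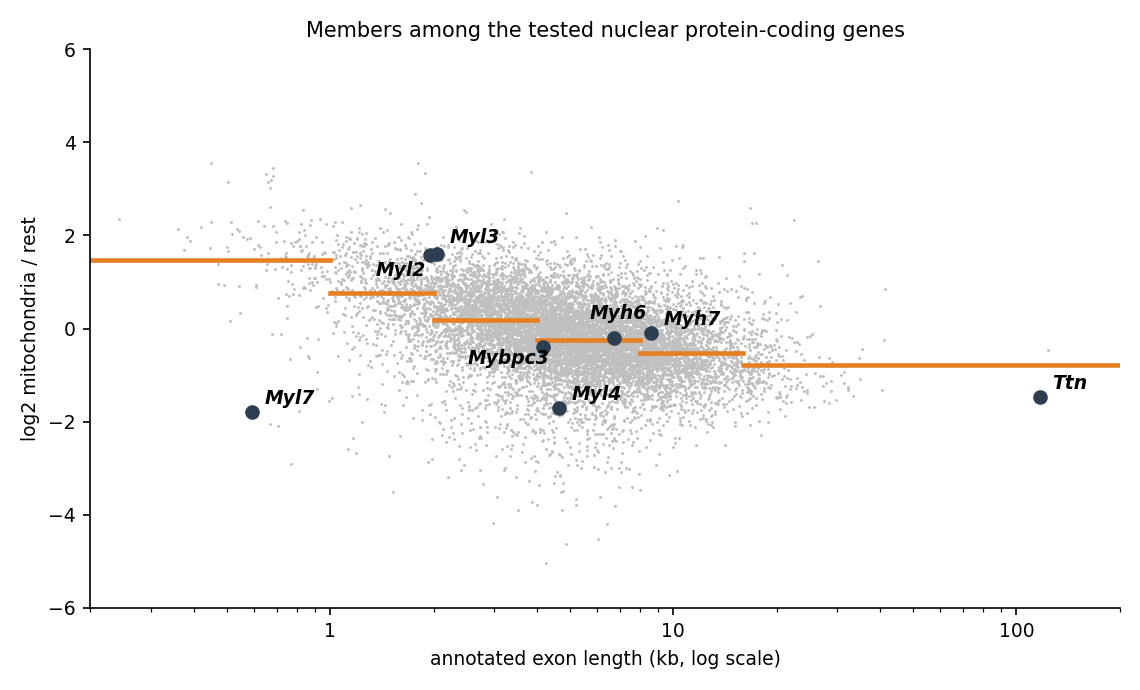
Log2 fold change of mitochondria against rest (scaled as deposited) against annotated exon length on a log scale for the nuclear protein-coding genes tested, in grey, with the median of each length band in orange and the 8 protein-coding members in dark. The band medians drop from 1.47 to -0.79 with length, Myl3 lies 1.43 and Myl2 0.82 above the median of its band (1.05 and 0.23 with the longest transcript as length), and scaling to the library total moves the median of all tested genes to -3.93. The longest protein-coding transcript of Myl3, 0.937 kb, would place it under 1 kb, the band with the median of 1.47.

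Thin filament genes were set beside the members for comparison. Of the 10 thin filament genes tested, limma called 1 higher in mitochondria and 0 lower (6 and 1 at an unadjusted p under 0.05, where 14.1% of all tested genes were higher and 16.2% lower, shares that also hold for the lists that follow), 8 had a positive log2 fold change, and the median was 0.92, against -0.14 over all tested genes. The values ran from -1.61 to 1.88, below and above those of Myl2 and Myl3. The called gene was Tnnc1 (cardiac troponin C), with 6108 and 4472 normalized counts in mitochondria and 1849 and 1657 in the rest fraction (log2 fold change 1.58 ± 0.23, SE, limma adjusted p = 0.0469). Tnnt2 (cardiac troponin T) had 47913 and 33524 against 11712 and 10145, and Tpm1 (tropomyosin) 37169 and 30323 against 12696 and 13054, with limma adjusted p of 0.0513 and 0.0596. Actc1, the cardiac actin gene, had 15205 and 16017 against 7768 and 9275 (limma adjusted p = 0.0886). As ratios to Myh6, 5 of the 10 were higher in mitochondria and 0 were lower, where 5.01% and 1.16% of all genes were called (7 and 1 at an unadjusted limma p under 0.05, where 16.8% and 8.77% of all genes were). Scaled to the library total, the median of the list was -3.06 and 0 of the 10 values were positive, with the median of all tested genes at -3.93.

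Of the 10 titin partner genes tested, 0 passed the limma test in either direction (6 higher and 0 lower at an unadjusted p under 0.05), 9 had a positive log2 fold change, and the median was 1.01. Tcap (telethonin, which caps titin in the Z-disc) had 3474 and 2217 normalized counts in mitochondria and 1058 and 796 in the rest fraction, Csrp3 (muscle LIM protein) 2432 and 1793 against 878 and 752, and the titin-binding stress gene Ankrd1 3695 and 5604 against 1354 and 3310. Tcap and Csrp3 had limma adjusted p of 0.0568 and 0.0514. The values of Tcap and Csrp3 had the opposite sign to that of Ttn, except with scaling to the library total. On that scale 0 of the 10 values were positive and the list median was -2.98. Scaled to the total without the mitochondrial chromosome, 6 of the 10 were positive, with a median of 0.14. As ratios to Myh6, 4 of the 10 were higher in mitochondria and 0 were lower, where 5.01% and 1.16% of all genes were called.

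The 6 tested genes of myosin binding and the M-band were split, 3 with positive and 3 with negative log2 fold changes and a median of -0.23, and 0 passed the limma test in either direction (1 higher and 2 lower at an unadjusted p under 0.05). The myomesin genes Myom1 (7409 and 4972 in mitochondria, 4461 and 4178 in the rest fraction) and Myom2 (9047 and 7510, 5429 and 4996) had log2 fold changes of 0.49 and 0.66. Of the 9 genes for myosin folding, light chain kinases and titin splicing, 0 passed the limma test (2 higher and 1 lower at an unadjusted p under 0.05), and the median was -0.05. The chaperone gene Hspa8 had 2854 and 2380 against 1284 and 1499, the cardiac myosin light chain kinase gene Mylk3 2192 and 1513 against 1331 and 1086, and the myosin phosphatase subunit gene Ppp1r12b 1507 and 1033 against 1407 and 1188. Rbm20, which regulates titin splicing and is named after its values were seen, had 775 and 564 in mitochondria and 1146 and 928 in the rest fraction, with a value of -0.64 on the log2 scale that missed the threshold.

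Of the 6 other sarcomeric myosin genes tested, 0 passed the limma test (0 higher and 1 lower at an unadjusted p under 0.05), and the median was 0.40. Myh7b, the host gene of miR-499, had 209 and 314 normalized counts in mitochondria and 709 and 570 in the rest fraction (log2 fold change -1.31 ± 0.27, SE, limma adjusted p = 0.0631). The skeletal muscle genes Myl1 (124 and 130, 34 and 99) and Myh4 (85 and 66, 47 and 66) had positive values that did not pass the test. Of the 7 non-sarcomeric myosin II genes tested, limma called 1 lower in mitochondria and 0 higher (2 in each direction at an unadjusted p under 0.05), with a median of -0.13. The called gene was the smooth muscle heavy chain Myh11, with 43 and 61 against 380 and 800 (log2 fold change -3.40 ± 0.42, SE, limma adjusted p = 0.0427). The non-muscle heavy chains Myh9 (1177 and 1240, 1393 and 1328), Myh14 (821 and 768, 578 and 494) and Myh10 (232 and 321, 270 and 332) did not pass the test.

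**Figure D5:**
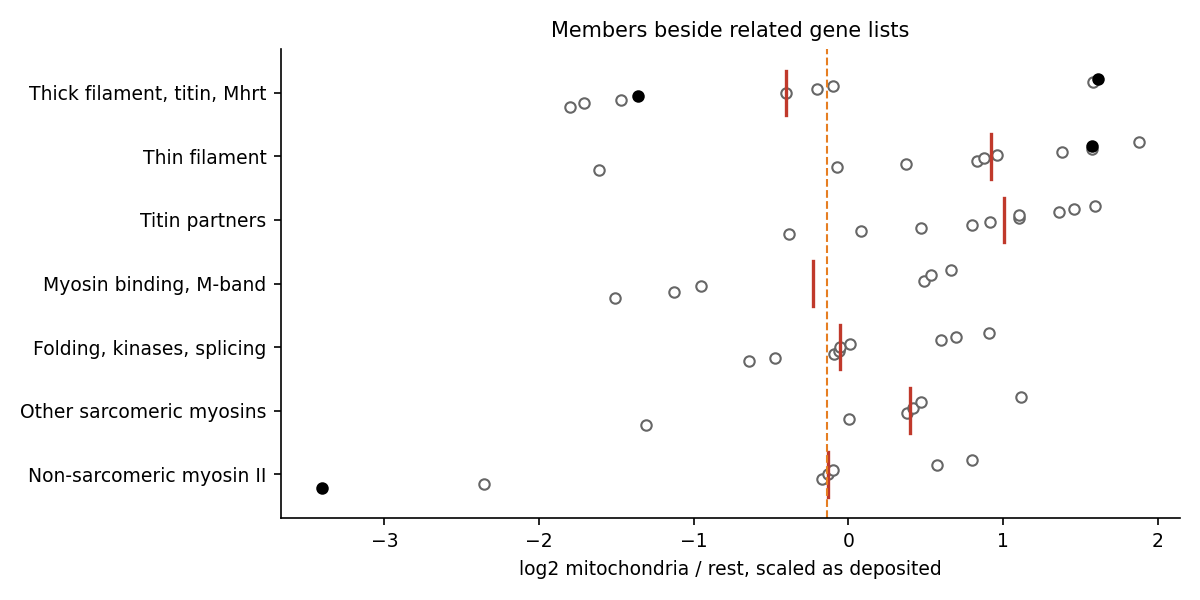
Log2 fold change of mitochondria against rest (scaled as deposited) for each tested gene of the 9 members and of 6 related lists. Filled points have an adjusted p under 0.05, red bars are the list medians, and the dashed line is the median of all tested genes. The thin filament list and the titin partners have medians of 0.92 and 1.01, which turn negative when scaled to the library total, and the members spread from -1.80 to 1.61.

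The genes most like Myh6, Ttn and Mhrt were found by the root mean square difference of log2 profiles over the 4 libraries, each centred on its mean, which with 4 libraries is a loose measure. For Myh6 these were Prepl, Bcr, Mgat1, Jun and Palld, at 0.00986 to 0.0226 on the log2 scale. For Ttn they were Ubn2, Acacb, AI480526, Zfp87 and Dnase1, at 0.0327 to 0.0394, of which AI480526, Zfp87 and Dnase1 had at most 13 normalized counts in any library. For Mhrt they were Mapkbp1, Ralgapa1, Clec14a, Cpsf7 and Rnf213, at 0.0304 to 0.0372.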

How the data were processed

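RNA of 2 mitochondrial and 2 rest libraries of adult mouse heart had been sequenced as single reads of 75 bases with a stranded total RNA kit. The deposited signal for each gene is a read count that the authors divided by a size factor and rounded (normalized counts). Per the submitters' processing notes, reads were trimmed with Trimmomatic 0.39, aligned to GRCm38 with STAR 2.7.10a, counted over exons with featureCounts 2.0.2, leaving out reads of several genes or regions, and compared with DESeq2 1.30.1. The file also holds the authors' fold changes and p-values, which were not used. As whole counts could not be restored in the rest libraries, where 1 normalized count stands for several reads, log2 of the value plus 1 was fitted with limma 3.58.1 (R 4.3.3, mean-variance trend, two-sided, Benjamini-Hochberg, threshold 0.05) over genes that reached 10 normalized counts in 2 or more libraries. With a library left out, the lone library of its fraction was assumed to vary like the other fraction. Simulated data served to check the scripts.

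The members and all gene lists were chosen with earlier results of these data known. All members are named. From each list the genes with an adjusted p under 0.05 are named, and otherwise at most 3 by the highest mean, with exceptions marked, and 1 gene that the rule includes is not reported here. Exon lengths, coding sequences and transcripts came from GENCODE M21, which matched 15736 of the 15746 genes by identifier, the 9 members with the same coordinates. Intervals of shares are Wilson intervals at 95%, from reads estimated by the spacing of low values, helped by the size factors for rest replicate 1. Intervals of fold changes and of ratios to Myh6 are 95% intervals of the moderated t of limma. Summaries were made with pandas 2.3.3 and numpy 2.4.6 in Python 3.11.15, Wilson intervals with scipy 1.17.1 and plots with matplotlib 3.10.9. Alternatives were other scalings, filters, pseudocounts of 0.1 and 10, a replicate block, each library left out, another reference than Myh6, other denominators and other lengths. The fit without the mean-variance trend and the length of the longest protein-coding transcript were chosen after seeing the data.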

Additional observations from a re-analysis of the deposited data

How the results depend on the processing

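As deposited, 1 member was higher and 1 lower in mitochondria. The number higher was 2 with TMM scaling, with a mean above 50 normalized counts, with a pseudocount of 10 and with the replicate block (3.59, 14.2, 4.41 and 3.87% of all genes), and 0 with scaling to the library total, to the total without the mitochondrial chromosome, with a pseudocount of 0.1 and without the mean-variance trend. The number lower was 9 with scaling to the library total (98.9% of all genes), 3 to the total without the mitochondrial chromosome (31.4%), 2 with a mean above 50 (12.1%), 2 with the replicate block (2.54%), and 0 with a pseudocount of 0.1 and without the trend. With each library left out, both numbers were 0 (0 to 0). The pseudocount of 0.1 called 0 genes of all 12150. Of the 8 ratios to Myh6, 2 were called, 0 without the trend, 5 with the replicate block (16.9% of all genes called), 5 with the thin filament sum as reference (62.6%), and 2 to 6 with a library left out (4.50 to 46.2%). Scaled to the library total, Myl2 was at -2.41 and Myl3 at -2.37, where the median gene was at -3.93, and to the total without the mitochondrial chromosome the median gene was at -0.98. Without mitochondria replicate 2, Myh6 was at 0.019 and Myh7 at 0.12 (ranges over the libraries left out, -0.42 to 0.019 and -0.32 to 0.12). The ratio of Myl7 to Myh6 ranged from -3.38 to 0.19, positive without mitochondria replicate 1, and that of Myh7 was -1.52 with the thin filament reference. Over all members and settings, 95 fold changes kept direction and side of the threshold, 14 newly passed it, 13 no longer passed it and 4 reversed. The shares of the members were 6.55% and 19.6% of all nuclear counts in mitochondria and rest, which adds Mhrt and many non-coding genes. For causes of these shifts beyond the changed set of genes or scale, the cause was not tested.

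Libraries with the same number deviated together only weakly, with r = 0.130 across 12150 genes, and with 2 pairs the numbers were taken as names. With the replicate block 470 genes were higher and 309 lower, against 262 and 169 without it, and Myl2, Myl3, Myl4 and Mhrt were called. Depth limits Myl7 in mitochondrial replicate 1 (19 normalized counts, where 3 reads give 11.6).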
